A study of Mus musculus with 10 samples.

Results

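The 6 genes described here, Klf10, Cdkn1a, Ctgf, Postn, Tgfbi and Tgif1, are classical transcriptional targets of transforming growth factor beta (TGF-beta) signalling. They were chosen by gene symbol, with their difference between the groups of this study already known, and each is represented by 1 probe. Together they are 6 of the 16383 genes that the array annotation names, after averaging probes of 1 symbol, and 6 of 23438 probes. The annotation lists Ctgf under its current symbol Ccn2. The array compared the livers of 6 Tgfbr2+/- mice, male per the labels, with those of 4 wild-type littermates whose sex the labels do not give. All mice were fed chow, and the sources used here do not state their age. The Tgfbr2+/- mice carry 1 knockout allele of the gene for TGF-beta receptor 2. The sources used here do not say how that allele was made or which exons it affects. Every library was set against the same pooled liver RNA of 6 wild-type animals.

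TGF-beta ligands are held latent in the extracellular matrix and, once released, bind the kinase receptor TGFBR2, which recruits and phosphorylates TGFBR1. The activated receptor phosphorylates Smad2 and Smad3, which join Smad4, enter the nucleus and bind DNA at short Smad-binding elements beside other factors. In liver the pathway is best known for restraining hepatocyte proliferation and for driving matrix production by stellate cells in fibrosis. Of the 6 genes, Klf10 and Tgif1 code for transcriptional regulators, Cdkn1a for a cell cycle inhibitor, and Ctgf, Postn and Tgfbi for secreted matrix-associated proteins. Several of them also answer to other inputs. Cdkn1a is a target of p53, and Ctgf is a target of YAP.

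The letters next to the start of some of these genes are shown because Smad proteins bind the core CAGAC. Windows of 300 bases, from 250 before to 50 after an annotated start, were read from the RefSeq promoter table (GRCm38.p6) for Cdkn1a, Postn, Tgfbi and Tgif1. Klf10 and Ctgf had no match in that table. CAGAC was searched on both strands, as CAGAC and as its reverse complement GTCTG, and matches are in capitals. All 5 windows printed are on the plus strand.
Cdkn1a, chr17:29090729-29091028: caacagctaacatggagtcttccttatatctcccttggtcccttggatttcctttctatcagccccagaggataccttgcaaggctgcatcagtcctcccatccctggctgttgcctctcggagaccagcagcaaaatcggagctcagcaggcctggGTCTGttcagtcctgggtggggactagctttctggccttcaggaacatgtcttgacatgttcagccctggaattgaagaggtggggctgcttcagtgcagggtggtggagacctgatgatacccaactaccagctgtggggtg
Cdkn1a, chr17:29093519-29093818: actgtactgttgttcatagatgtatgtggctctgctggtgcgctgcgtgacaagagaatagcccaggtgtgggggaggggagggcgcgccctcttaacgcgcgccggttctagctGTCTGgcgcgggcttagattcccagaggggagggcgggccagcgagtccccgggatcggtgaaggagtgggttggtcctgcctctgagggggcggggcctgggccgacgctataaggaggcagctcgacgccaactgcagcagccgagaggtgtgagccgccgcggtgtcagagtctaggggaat
Postn, chr3:54359017-54359316: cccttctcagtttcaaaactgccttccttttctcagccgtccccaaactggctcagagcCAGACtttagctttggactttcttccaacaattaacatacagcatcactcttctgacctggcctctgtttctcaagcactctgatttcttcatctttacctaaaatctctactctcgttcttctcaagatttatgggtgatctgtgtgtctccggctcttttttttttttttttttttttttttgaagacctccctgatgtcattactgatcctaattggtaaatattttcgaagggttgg
Postn, chr3:54360857-54361156: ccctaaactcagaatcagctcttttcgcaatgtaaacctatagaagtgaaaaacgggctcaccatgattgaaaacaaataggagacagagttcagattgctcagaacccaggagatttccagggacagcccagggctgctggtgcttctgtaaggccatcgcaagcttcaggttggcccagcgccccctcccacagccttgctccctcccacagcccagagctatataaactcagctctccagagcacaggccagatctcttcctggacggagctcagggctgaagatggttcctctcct
Tgfbi, chr13:56609336-56609635: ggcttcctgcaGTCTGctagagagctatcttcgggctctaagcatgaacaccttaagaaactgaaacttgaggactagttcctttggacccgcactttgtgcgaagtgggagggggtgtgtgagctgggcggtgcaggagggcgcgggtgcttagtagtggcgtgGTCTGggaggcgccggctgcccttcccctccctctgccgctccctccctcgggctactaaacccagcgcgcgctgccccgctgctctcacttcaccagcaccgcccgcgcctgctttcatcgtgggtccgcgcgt
Each Cdkn1a window held 1 match, the windows of Postn held 1 and 0, and that of Tgfbi held 2. Of the 10 windows of these 4 genes, 5 of them of Tgif1, 7 held a match. So short a motif is common: 49.6% of the 32851 windows in the table hold it. A match is a description of the letters, not evidence of binding.

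Values below are log2 ratios of a mouse's liver over the wild-type pool, so that 0 is the level of the pool and -1 is a level at 0.5 of it. No intensities were used here, so levels cannot be compared between genes, and signal over background is unknown. That the ratio has the sample on top is inferred, not stated. The sample titles name the pool first and the sample second, and that order does not say which is on top. The direction was taken from the lower Tgfbr2 ratio in the Tgfbr2+/- livers, seen with 1 of its 2 probes (difference -0.88, against -0.07 for the other). Were the pool on top in all columns, each difference below would have the opposite sign, while the correlations would not. Wild-type replicate 1 and Tgfbr2+/- replicate 5 correlated at -0.32 over all probes, so either column could itself be turned. As deposited, each lay with its own group for the mean of both Tgfbr2 probes (0.23 and -0.49). The same held for the mean of 14 Kupffer cell and macrophage markers (-0.16 and 0.18), a list chosen with earlier results of these data known. Other values of wild-type replicate 1 lay apart from both groups. Its mean of 6 mesothelial markers was 0.56, against -0.37 to -0.24 in the other wild-type livers and -0.38 to -0.03 in Tgfbr2+/- livers. Col1a1 was at 1.95 in it and below the pool in every other library. Whether either column is turned was not tested. The differences of the 6 genes are therefore also given with the sign of each turned. Of 76 other genes named here or in their lists, 14 changed the sign of their difference with at least 1 of these columns turned. The replicates are separate mice. RNA of whole liver cannot tell fewer cells of a type from less RNA per cell.

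Tgfbr2 itself, the gene carried in 1 functional copy, was measured by 2 probes. The mean of both had a lowest value of -0.50, a median of -0.40 and a highest of 0.05 in Tgfbr2+/- livers, against 0.23, 0.37, -0.07 and 0.08 in wild-type livers. It was therefore lower than every wild-type value in 5 of 6 Tgfbr2+/- livers. The difference was -0.47 (SE 0.12), with a limma adjusted p of 0.516 over all genes. It was -0.36 with wild-type replicate 1 turned and -0.31 with Tgfbr2+/- replicate 5 turned. Nearly all of it came from 1 probe (difference -0.88, SE 0.26), whereas the other differed by -0.07 (SE 0.09). The library labelled Tgfbr2+/- replicate 4 was at 0.20 with the probe that differed, higher than 2 of the 4 wild-type libraries. That value goes against its label. With the other probe, which hardly differed between the groups, it was at -0.10, where the lowest wild-type value was 0.04. Its mean of the Kupffer cell and macrophage markers was 0.10, where the highest wild-type mean was -0.10. That list was chosen with earlier results of these data known, so it is not an independent check of the label. Differences are given below with and without this library.

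Klf10, Cdkn1a, Ctgf and Postn had lower mean ratios in Tgfbr2+/- livers than in wild-type livers, and Tgfbi and Tgif1 had higher ones. The lower ones range from 1.78-fold for Ctgf to 1.25-fold for Postn, and the higher ones are 1.19-fold for Tgif1 and 1.14-fold for Tgfbi. These differences chose the genes, so they are given as a description and carry no test. The groups overlapped for all 6 genes, where 1.08% of all genes had groups that did not overlap, and 4 of 6 differences were negative, where 47.4% of all genes were. Because the same contrast chose the genes, nothing is read from these counts. Over the whole array no gene passed an adjusted p of 0.05 with limma, 0% of 16383, and 908 genes (5.54%) had an unadjusted p under 0.05, as did 1151 of 23438 probes (4.91%).

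**Figure D1:**
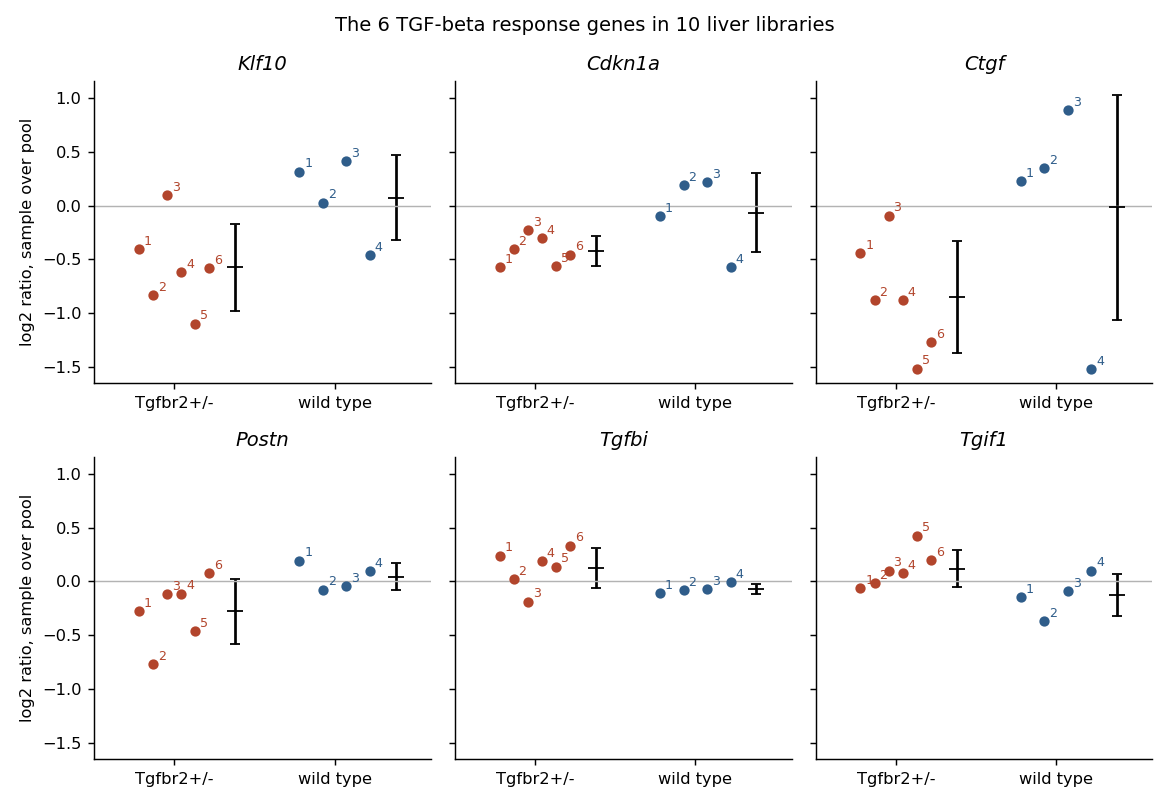
Log2 ratio over the wild-type pool (vertical axis) of the 6 genes in each library, 6 Tgfbr2+/- (left, red) and 4 wild-type (right, blue), numbered by replicate, with the mean and SD of each group as black bars. Wild-type replicate 4 lies among or below the Tgfbr2+/- libraries for Cdkn1a and Ctgf, and among the Tgfbr2+/- libraries replicate 3 lies closest to the pool for Cdkn1a, Ctgf and Klf10.

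Klf10, also called TGF-beta-inducible early gene 1, codes for a zinc finger repressor of the Krüppel-like family. Its log2 ratio had a lowest value of -1.10, a median of -0.60 and a highest of 0.10 in Tgfbr2+/- livers, against 0.32, 0.03, 0.41 and -0.46 in wild-type livers. Tgfbr2+/- livers were below the pool in 5 of 6 animals and below the lowest wild-type liver in 4 of 6. The exception above the pool was replicate 3, and the wild-type exception below it was replicate 4. The mean was -0.57 ± 0.41 (SD, n = 6) in Tgfbr2+/- livers and 0.07 ± 0.39 (SD, n = 4) in wild-type livers, a difference of -0.65 (SE 0.22). The difference was -0.64 without Tgfbr2+/- replicate 4, -0.49 with wild-type replicate 1 turned in sign and -0.28 with Tgfbr2+/- replicate 5 turned. The other 14 measured genes of the Krüppel-like family had differences between -0.23 (Klf1, an erythroid factor) and 0.10 (Klf6 and Klf15). Klf11, a close relative of Klf10 and also a TGF-beta target, differed by -0.00 (SE 0.07).

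Cdkn1a codes for p21, an inhibitor of cyclin-dependent kinases that TGF-beta induces during growth arrest. Its ratio had a lowest value of -0.57, a median of -0.43 and a highest of -0.23 in Tgfbr2+/- livers, against -0.10, 0.19, 0.22 and -0.57 in wild-type livers. All 6 Tgfbr2+/- livers were below the pool and below 3 of the 4 wild-type livers, while wild-type replicate 4 was as low as the lowest of them. The mean was -0.42 ± 0.14 (SD, n = 6) in Tgfbr2+/- livers and -0.06 ± 0.37 (SD, n = 4) in wild-type livers, a difference of -0.36 (SE 0.14). It was -0.38 without Tgfbr2+/- replicate 4, -0.40 with wild-type replicate 1 turned and -0.17 with Tgfbr2+/- replicate 5 turned. Among the other 7 cyclin-dependent kinase inhibitor genes, differences ran from -0.11 for Cdkn1c (p57) to 0.21 for Cdkn2d (p19). Cdkn2b, which codes for p15 and is a direct TGF-beta target in epithelial cells, differed by -0.02 (SE 0.07).

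Ctgf codes for connective tissue growth factor, a matricellular protein of the CCN family that stellate cells and hepatocytes make in response to TGF-beta. Its ratio had a lowest value of -1.51, a median of -0.88 and a highest of -0.09 in Tgfbr2+/- livers, against 0.22, 0.35, 0.89 and -1.52 in wild-type livers. All 6 Tgfbr2+/- livers were again below the pool and below 3 of the 4 wild-type livers, and wild-type replicate 4 had the lowest value of all 10. The mean was -0.85 ± 0.52 (SD, n = 6) in Tgfbr2+/- livers and -0.01 ± 1.04 (SD, n = 4) in wild-type livers, a difference of -0.83 (SE 0.42). The SD within groups, 0.76, was exceeded by 0.33% of all genes, so Ctgf is among the most variable genes on the array between mice of 1 genotype. The difference was -0.83 without Tgfbr2+/- replicate 4, -0.72 with wild-type replicate 1 turned and -0.33 with Tgfbr2+/- replicate 5 turned. The other 4 measured CCN genes had differences between 0.00 (Ccn5) and 0.13 (Ccn1, the other CCN gene that TGF-beta and YAP are known to induce).

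For these 3 genes the size of the difference depended on single livers. Without wild-type replicate 4 the differences were -0.83 for Klf10, -0.53 for Cdkn1a and -1.33 for Ctgf, the last a change of over 1.5 times on the log2 scale. Without wild-type replicate 3, which was highest for all 3, they were -0.53, -0.26 and -0.53. The mean of the 3 log2 ratios was -0.07 in Tgfbr2+/- replicate 3 and between -1.06 and -0.47 in the other 5 Tgfbr2+/- livers. It was 0.15, 0.19 and 0.51 in wild-type replicates 1 to 3 and -0.85 in replicate 4, which thus lay within the range of the Tgfbr2+/- livers.

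Postn codes for periostin, a matrix protein made by fibroblasts and induced by TGF-beta. Its ratio had a lowest value of -0.77, a median of -0.20 and a highest of 0.07 in Tgfbr2+/- livers, against 0.19, -0.08, -0.05 and 0.09 in wild-type livers. Tgfbr2+/- livers were below the lowest wild-type liver in 5 of 6 animals, and replicate 6 lay among the wild-type values. Unlike in the 3 genes above, wild-type replicate 4 was not low. The mean was -0.28 ± 0.30 (SD, n = 6) in Tgfbr2+/- livers and 0.04 ± 0.13 (SD, n = 4) in wild-type livers, a difference of -0.32 (SE 0.14). It ranged from -0.39 without Tgfbr2+/- replicate 6 to -0.22 without replicate 2, which had the lowest value, and was -0.35 without replicate 4. It was -0.22 with wild-type replicate 1 turned and -0.17 with Tgfbr2+/- replicate 5 turned.

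Tgfbi codes for a secreted adhesion protein that binds collagens and integrins and was first found as a TGF-beta-induced gene; macrophages also make it. Its ratio had a lowest value of -0.19, a median of 0.16 and a highest of 0.33 in Tgfbr2+/- livers, against -0.11, -0.08, -0.07 and -0.01 in wild-type livers. Tgfbr2+/- livers were above the highest wild-type liver in 5 of 6 animals, and replicate 3 was below the lowest. The mean was 0.12 ± 0.18 (SD, n = 6) in Tgfbr2+/- livers and -0.07 ± 0.04 (SD, n = 4) in wild-type livers, a difference of 0.19 (SE 0.09). It was 0.18 without Tgfbr2+/- replicate 4, 0.13 with wild-type replicate 1 turned and 0.14 with Tgfbr2+/- replicate 5 turned. With the columns as deposited, the mean of the macrophage markers was higher in each Tgfbr2+/- liver than in any wild-type liver. Of 14 measured Kupffer cell and macrophage markers, 12 had higher mean ratios in Tgfbr2+/- livers, with a median difference of 0.41, where the median of all genes was 0.00. It was 0.27 with wild-type replicate 1 turned and 0.31 with Tgfbr2+/- replicate 5 turned. Of those markers 10 had an unadjusted limma p under 0.05, all higher, where 2.97% of all genes were higher at that p, and 0 had an adjusted one. The mean of the list lay between -0.00 and 0.24 in Tgfbr2+/- livers and between -0.24 and -0.10 in wild-type livers. The part of macrophage RNA in the Tgfbi difference was not tested.

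Tgif1 codes for a homeodomain repressor that binds Smad proteins and limits TGF-beta responses. Its ratio had a lowest value of -0.06, a median of 0.09 and a highest of 0.42 in Tgfbr2+/- livers, against -0.15, -0.37, -0.09 and 0.10 in wild-type livers. Of the 6 Tgfbr2+/- livers 2 were above the highest wild-type liver, and the others lay within the wild-type range. The mean was 0.12 ± 0.17 (SD, n = 6) in Tgfbr2+/- livers and -0.13 ± 0.19 (SD, n = 4) in wild-type livers, a difference of 0.25 (SE 0.11). It ranged from 0.17 without wild-type replicate 2 to 0.32 without wild-type replicate 4. It was 0.26 without Tgfbr2+/- replicate 4, 0.17 with wild-type replicate 1 turned and 0.11 with Tgfbr2+/- replicate 5 turned.

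**Figure D2:**
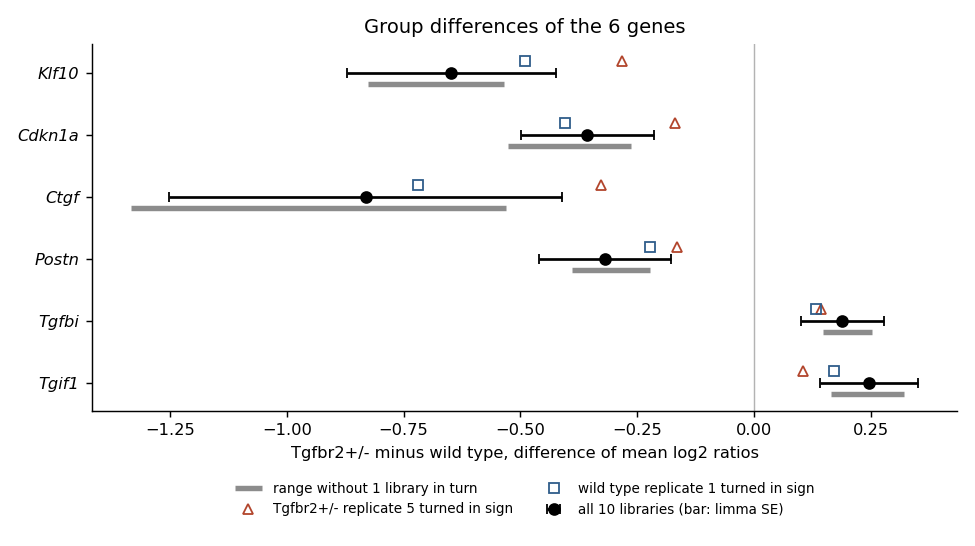
Difference of mean log2 ratios, Tgfbr2+/- minus wild type (horizontal axis), for the 6 genes, with the limma SE as bars, the range when 1 library is left out as grey bands, and the value with Tgfbr2+/- replicate 5 (triangles) or wild-type replicate 1 (squares) turned in sign. Klf10, Cdkn1a, Ctgf and Postn stay below 0 and Tgfbi and Tgif1 above 0 in each of these settings, and turning Tgfbr2+/- replicate 5 brings 5 of the genes closest to 0.

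With the group means removed, it was tested whether each gene followed Tgfbr2 inside the groups. The genes were chosen with earlier results of these data known. The rule that set out these genes also called for their correlation with the Tgfbr2 probes over the same 10 libraries. This test is therefore not independent of that choice, and its p-values, here and for Postn below, are given as a description. Over all 10 libraries the ratios of the genes with the mean of both Tgfbr2 probes gave Pearson r of 0.54 for Klf10, 0.59 for Cdkn1a, 0.39 for Ctgf, 0.72 for Postn, -0.31 for Tgfbi and -0.61 for Tgif1. These values contain the group difference that chose the genes and are a description. After the group means were removed, r was 0.04 for Klf10, 0.22 for Cdkn1a and -0.03 for Ctgf (Spearman's rho 0.02, 0.09 and -0.10). Two-sided exact permutation within groups gave p = 0.916, 0.568 and 0.939 for these 3 genes. For Tgfbi r was 0.26 (rho 0.22) and for Tgif1 it was -0.30 (rho -0.27), with exact permutation p = 0.519 and 0.424. No gene of the 6 passed an adjusted p of 0.05, and none had an unadjusted exact permutation p under it. These correlations depended on the sign of Tgfbr2+/- replicate 5. With that library turned, r was 0.60 for Klf10, 0.68 for Cdkn1a, 0.49 for Ctgf, -0.22 for Tgfbi and -0.64 for Tgif1. Exact permutation p then lay between 0.0591 for Cdkn1a and 0.666 for Tgfbi, and none of the 6 genes passed after adjustment. Without wild-type replicate 3, r was 0.54 for Cdkn1a (exact permutation p = 0.084, adjusted 0.504), 0.23 for Klf10 and 0.24 for Ctgf.

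Postn had the highest correlation with Tgfbr2 inside the groups. Its r was 0.54 and its rho 0.65 over 10 libraries, with exact permutation p = 0.152 and 0.0545 (adjusted over the 6 genes 0.852 and 0.327). Without the 2 libraries farthest from the median of Tgfbr2, the library labelled Tgfbr2+/- replicate 4 and wild-type replicate 2, r was 0.81 over 8 libraries (exact permutation p = 0.0083, adjusted 0.05) and rho was 0.88 (exact permutation p = 0.0042). In the 6 Tgfbr2+/- livers alone r was 0.68 (exact permutation p = 0.138) and rho was 0.94 (exact permutation p = 0.0167, adjusted 0.1). With Tgfbr2+/- replicate 5 turned, r over 10 libraries was 0.76 (exact permutation p = 0.0401, adjusted 0.147). The probes taken singly gave r of 0.40 and 0.25. The relation of Postn with Tgfbr2 thus did not pass the threshold over all libraries, and its size depends on which libraries enter and on their sign.

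The genes were also set against each other inside the groups, as 15 pairs, an analysis added after the values were seen. Klf10 and Ctgf had the highest correlation, with r of 0.86 and rho of 0.84 over 10 libraries (exact permutation p = 0.0018 and 0.0056, adjusted over the 15 pairs 0.0269 and 0.0833). It was the only pair that passed an adjusted p of 0.05 by Pearson's r, and none passed by rho. Cdkn1a and Ctgf had r of 0.85 and rho of 0.68 (exact permutation p = 0.0177, adjusted 0.133), and Klf10 and Cdkn1a had r of 0.65 and rho of 0.50 (exact permutation p = 0.0438, adjusted 0.176). Klf10 and Ctgf no longer passed the adjusted p without Tgfbr2+/- replicate 1, 3, 4 or 5 or without wild-type replicate 3 or 4. In these settings r stayed between 0.84 and 0.86. Cdkn1a and Ctgf passed it without Tgfbr2+/- replicate 1, with r of 0.95. Without wild-type replicate 4, which was low for all 3 genes, r was 0.55 for Cdkn1a and Ctgf and 0.42 for Klf10 and Cdkn1a. Without the 2 libraries farthest from the median, r over 8 libraries was 0.71 for Klf10 and Ctgf (exact permutation p = 0.0903, adjusted 0.557), without Tgfbr2+/- replicate 3 and wild-type replicate 4. It was 0.49 for Cdkn1a and Ctgf (p = 0.224, exact permutation) without wild-type replicates 3 and 4, and 0.00 for Klf10 and Cdkn1a (exact permutation p = 0.992). In the 6 Tgfbr2+/- livers alone Klf10 and Ctgf had r of 0.89 (exact permutation p = 0.0208, adjusted 0.312). Tgif1 ran opposite to Ctgf, with r of -0.65 (exact permutation p = 0.0685, adjusted 0.176).

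**Figure D3:**
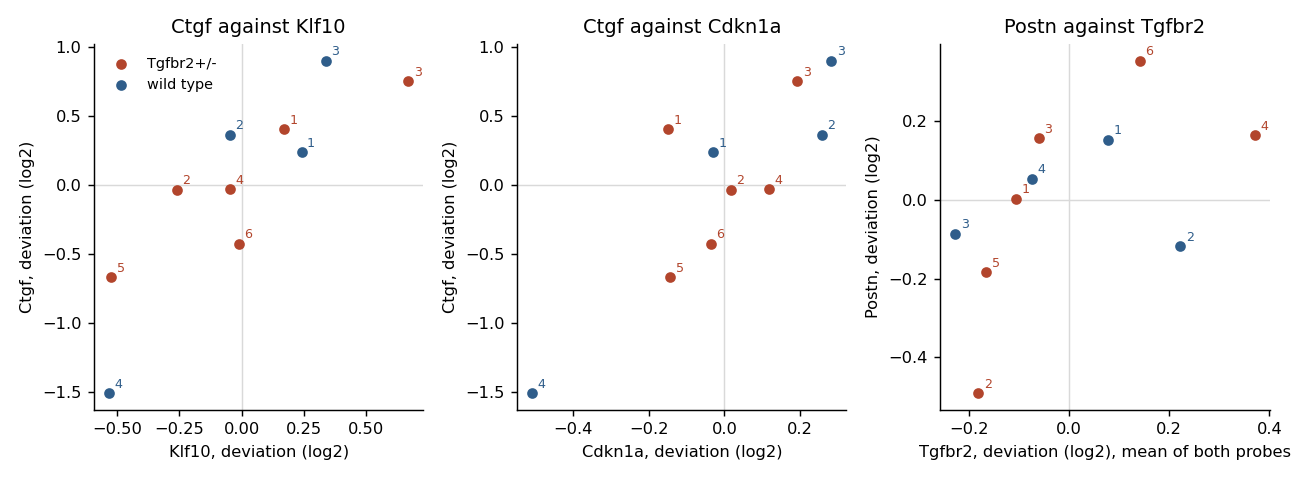
Deviations from the group mean on the log2 scale for Ctgf against Klf10 (left), Ctgf against Cdkn1a (middle) and Postn against the mean of both Tgfbr2 probes (right), 1 point per library, red for Tgfbr2+/- and blue for wild type. Wild-type replicate 4 is the lowest point for Ctgf and for Cdkn1a, and the library labelled Tgfbr2+/- replicate 4 is farthest to the right for Tgfbr2.

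**Figure D4:**
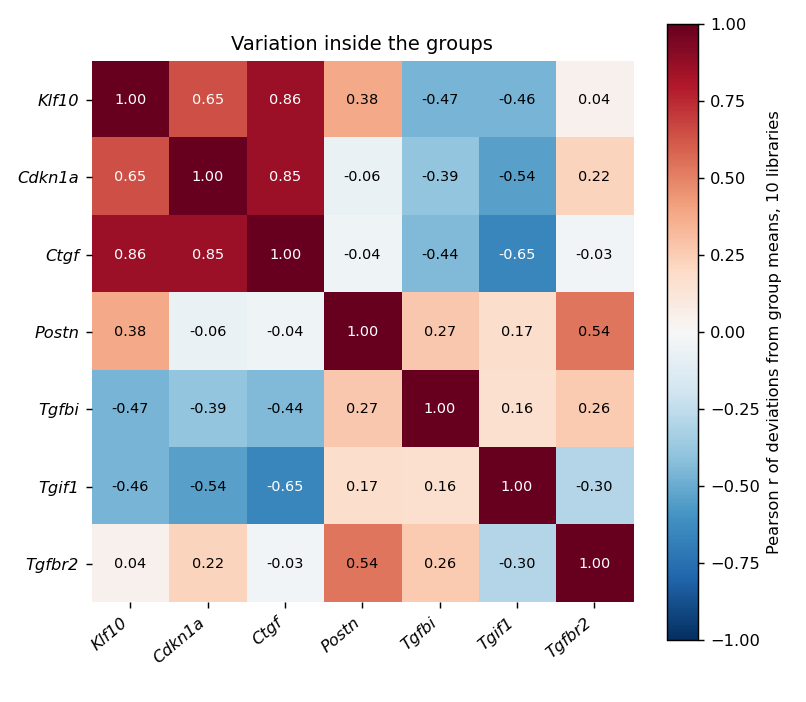
Pearson r of deviations from the group means over 10 libraries for each pair of the 6 genes and for each with the mean of both Tgfbr2 probes, coloured from -1 (blue) to 1 (red). Klf10, Cdkn1a and Ctgf form the block of high values, 0.65 to 0.86, and Tgfbr2 has its highest value with Postn, 0.54.

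As a list, fasting-induced genes shared some of the low livers of Klf10, Cdkn1a and Ctgf and not others. The mean of 15 such genes was -0.17, -0.28, 0.00, -0.35, -0.13 and 0.01 in Tgfbr2+/- replicates 1 to 6, against 0.06, 0.20, 0.16 and -0.33 in wild-type livers. Wild-type replicate 4 was low and Tgfbr2+/- replicate 3 near the pool, as for the 3 genes. Tgfbr2+/- replicates 5 and 6, in which the mean of the 3 genes was lowest among Tgfbr2+/- livers, had fasting means of -0.13 and 0.01. These means include Lpin1, the gene of the largest difference in the list, and were not computed without it. Lpin1, a phosphatidate phosphatase and coactivator that fasting and glucocorticoids induce in liver, had a lowest value of -1.94 and a highest of 0.26 in Tgfbr2+/- livers, the highest in replicate 3. In Tgfbr2+/- replicates 5 and 6 it was at -1.85 and -1.34. In wild-type livers it was at 0.63, 0.86, 0.88 and -2.12. Its difference was -1.25 (SE 0.61), or -0.64 with Tgfbr2+/- replicate 5 turned and -1.98 without wild-type replicate 4, and that of G6pc, the catalytic subunit of glucose-6-phosphatase, was -0.43 (SE 0.24), or -0.24 with wild-type replicate 1 turned. G6pc was at -0.27 and -0.52 in Tgfbr2+/- replicates 5 and 6. Of the 15 genes 4 had positive and 11 negative differences, with a median of -0.07, and 0 had an unadjusted limma p under 0.05. The part of feeding state in the differences of Klf10, Cdkn1a and Ctgf was not tested.

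A list of glucocorticoid-responsive genes was written after these values were seen and carries no test. Of its 11 genes 8 had negative differences, with a median of -0.09. Its mean was -0.49 in wild-type replicate 4, the lowest wild-type liver, and 0.20 in the highest. In Tgfbr2+/- livers its mean lay between -0.51 and 0.02. Its genes differed among themselves. Mt2, a metallothionein, differed by -0.41 (SE 0.25). The 3 positive differences were those of Pck1, a gluconeogenic enzyme (0.12, SE 0.14), Sgk1, a kinase (0.12, SE 0.07), and Tat, tyrosine aminotransferase (0.00, SE 0.12). Without wild-type replicate 4, Pck1 differed by -0.02 and Tat by -0.08, while Sgk1 differed by 0.08. With wild-type replicate 1 turned, Tat differed by -0.08. Fkbp5, a cochaperone of the glucocorticoid receptor and itself induced by that receptor, had a lowest value of -1.25, a highest of -0.10 (replicate 3) and a mean of -0.86 in Tgfbr2+/- livers. In wild-type livers it was at 0.24, 0.77, 0.72 and -1.49. Its difference was -0.92 (SE 0.40), or -1.43 without wild-type replicate 4. The 10 other YAP target genes of a list written at the same time had a median difference of 0.01, with 7 positive and 3 negative. The part of glucocorticoid signalling in the ratios was not tested.

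The genes whose ratios were most like each of the 6 over the 10 libraries were mostly outside the TGF-beta pathway. The likeness is Pearson r over 10 libraries that share the pool and the group difference, and is given as a description. Klf10 was most like Nmd3 (r 0.96), a nuclear export adaptor of the large ribosomal subunit, then Lsm3 (0.95), of the spliceosome, and Sult1d1 (0.95), a sulfotransferase. Cdkn1a was most like Mrps31 (0.98), of the mitochondrial ribosome, Kpna2 (0.96), a nuclear import receptor, and Plin5 (0.94), a lipid droplet protein induced by fasting. Ctgf was most like Rrm2 (0.96), a subunit of ribonucleotide reductase, Ptp4a1 (0.95), a phosphatase, and Cdip1 (0.95), a p53 target that promotes cell death. Ctgf ranked 24th in likeness to Klf10 and 20th to Cdkn1a, each with r of 0.89, and Klf10 and Cdkn1a ranked 27th and 24th to Ctgf.

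Postn, Tgfbi and Tgif1 had other neighbours. Postn was most like Deup1 (r 0.93), of centriole assembly in ciliated cells, Gria3 (0.92), a glutamate receptor subunit, and Tmprss11d (0.90), a transmembrane serine protease. Tgfbi was most like H2-M3 (0.94), a non-classical MHC class I gene, H2-Ab1 (0.94), an MHC class II chain of antigen-presenting cells, and Calhm6 (0.94), an ion channel gene of activated macrophages. H2-Ab1 lay between -0.21 and 0.19 in Tgfbr2+/- livers and at -0.19, -0.14, -0.11 and -0.18 in wild-type livers. As for Tgfbi, Tgfbr2+/- replicate 3 had its lowest value. Tgif1 was most like Uhrf2 (0.97), a ubiquitin ligase that binds modified DNA, Smurf2 (0.96), a ubiquitin ligase that degrades TGF-beta receptors and Smads, and Kif11 (0.96), a mitotic kinesin. Smurf2 lay between -0.09 and 0.17 in Tgfbr2+/- livers and at -0.05, -0.18, -0.08 and -0.02 in wild-type livers, so its range was narrower than that of Tgif1.

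The other known TGF-beta response genes had differences in both directions. Besides the 6 genes, 51 genes of a list of such targets were measured: 19 had positive and 32 negative differences, with a median of -0.02, where the median of all genes was 0.00. The median was 0.01 with wild-type replicate 1 turned and -0.03 with Tgfbr2+/- replicate 5 turned. At an unadjusted limma p under 0.05 were 2 of them, both lower, where 2.57% of all genes were lower at that p, and 0 passed the adjusted one. That count of 2 was 8 without Tgfbr2+/- replicate 6 and 5 without Tgfbr2+/- replicate 1 or wild-type replicate 4. It was 1 when Tgfbr2+/- replicate 2 or 4 or wild-type replicate 1 was left out, and 0 when wild-type replicate 3 was. The mean of the 51 lay between -0.12 and 0.01 in Tgfbr2+/- livers and between -0.06 and 0.10 in wild-type livers. The 2 were Atf3, a stress-induced transcription factor, with a difference of -0.38 (SE 0.15), and Loxl2, a collagen cross-linking enzyme, with -0.15 (SE 0.06; named after its value was seen). Atf3 averaged -0.16 ± 0.25 (SD, n = 6) in Tgfbr2+/- livers and 0.22 ± 0.27 (SD, n = 4) in wild-type livers.

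Other response genes with large differences varied widely between mice of 1 genotype. Col1a1, a chain of collagen I, differed by -0.91 (SE 0.60), with values between -2.34 and -0.58 in Tgfbr2+/- livers. In wild-type livers it was at 1.95, -1.51, -0.81 and -1.12, so that only wild-type replicate 1 was above the pool. The difference was -0.14 without that library and 0.06 with it turned in sign. Gadd45b, a stress sensor, differed by -0.35 (SE 0.27) and Twist1, a mesenchymal transcription factor, by -0.35 (SE 0.23). The largest positive differences were those of Bmf, a pro-apoptotic BH3-only gene (0.28, SE 0.18), and Spsb1, an adaptor of a ubiquitin ligase that restrains TGF-beta signalling (0.24, SE 0.19). Next came Timp1, an inhibitor of metalloproteinases (0.15, SE 0.12), and Ccn1 (0.13, SE 0.10, but -0.00 with wild-type replicate 1 turned). None of these had an unadjusted limma p under 0.05. With Tgfbr2+/- replicate 5 turned, Twist1 differed by -0.06, Bmf by 0.14 and Spsb1 by 0.08.

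**Figure D5:**
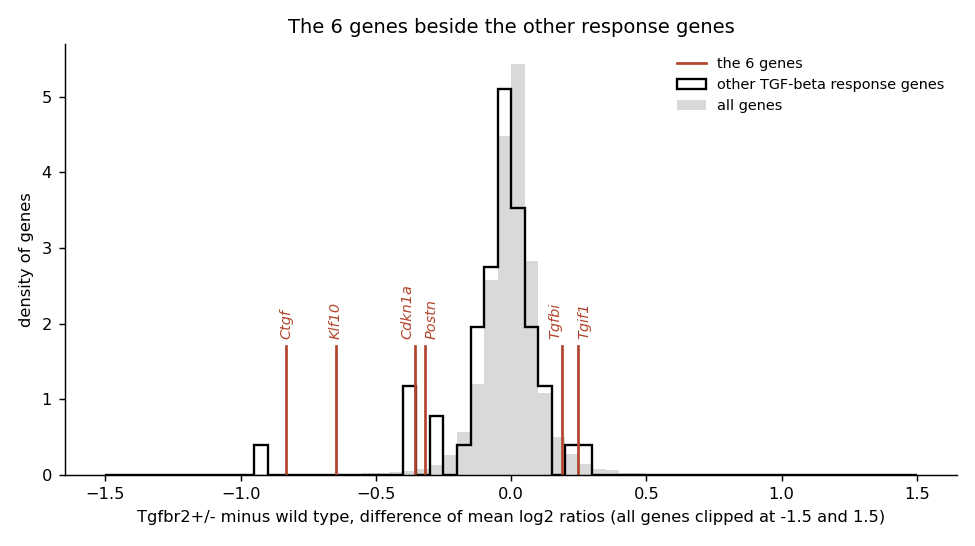
Distribution of the difference of mean log2 ratios, Tgfbr2+/- minus wild type (horizontal axis), for the 6 genes (red lines), 51 other TGF-beta response genes (black outline) and all 16383 genes (grey), the last 2 as densities. The other response genes centre at -0.02, close to 0.00 for all genes, and the 6 genes, chosen for their difference, lie away from both centres.

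Upstream of the 6 genes, the ligands, receptors and Smads had differences in both directions too. Of 15 measured genes 8 had positive and 7 negative differences, with a median of 0.00, and Tgfbr2 alone had an unadjusted limma p under 0.05, where 5.54% of all genes did, with 0 past the adjusted one. Smad3, which carries the signal to many of these targets, averaged -0.10 ± 0.10 (SD, n = 6) in Tgfbr2+/- livers and -0.04 ± 0.02 (SD, n = 4) in wild-type livers. Smad2 differed by 0.11 (SE 0.07), the ligand gene Tgfb2 by -0.04 (SE 0.09) and Acvrl1, an endothelial type I receptor of the family, by 0.13 (SE 0.06). The latent TGF-beta binding proteins Ltbp4 and Ltbp3 differed by 0.25 (SE 0.17) and -0.03 (SE 0.05), and Zfyve9, an anchor that presents Smads to the receptor, by 0.03 (SE 0.05).

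Markers of stellate cells, hepatocytes and endothelial cells had median differences near 0, unlike those of macrophages above. The mean of 17 hepatic stellate cell and fibroblast markers lay between -0.20 and 0.02 in Tgfbr2+/- livers and between -0.14 and 0.19 in wild-type livers, with a median difference of 0.01. Hepatocyte markers (10 measured) and endothelial markers (12 measured) had median differences of 0.01 and 0.00. Pdgfra, a fibroblast receptor, was the stellate and fibroblast marker with an unadjusted limma p under 0.05, with a difference of -0.22 (SE 0.09). Ratios against a liver pool cannot show that the tissue is liver, since a marker at the pool's level reads 0 whatever that level is.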

How the data were processed

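Total liver RNA was amplified, labelled with Cy3 and Cy5 and hybridised to 2-colour arrays against the pool, with dye swaps, per the labels. The deposited values are log10 ratios; the sources used here do not state the background correction, the normalization or the dyes of each column. The base was inferred from 8 values at exactly 2 or -2, and the direction was taken as sample over pool, which is not stated. Each column is centred near 0, with medians of 0.0013 to 0.0047 on the log10 scale. Values were multiplied by 3.32 to log2. Of 23438 probes, 17726 carry 1 gene symbol, 50 several and 5662 are unnamed here; probes of 1 symbol were averaged. Groups came from the sample titles.

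Differences were fitted over all genes with limma 3.58.1 (lmFit, eBayes, two-sided) in R 4.3.3, adjusted by Benjamini-Hochberg at 0.05. Correlations inside groups used all orders of the libraries within each group. The scripts were tested on simulated data. The 6 genes and the gene lists were chosen with earlier results of these data known. Named genes are Tgfbr2 and the 6 genes, the 3 most alike to each over the 10 libraries, the 4 largest differences in each direction in the 2 pathway lists, the 2 largest in every other list, and all members of the Krüppel-like, CCN and kinase inhibitor families. Replicates with 1 number in both groups correlated in their deviations at 0.11, 0.10, 0.30 and 0.02, so the numbers were not taken as pairs.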

Additional observations from a re-analysis of the deposited data

Results flagged for a closer look

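Outlying livers were looked for in 58 groups of values, and chance flags about 5% of such groups. The mean of the CCN family, which holds Ctgf, was -0.40 in Tgfbr2+/- replicate 5, against -0.14 to -0.02 in the other 5 Tgfbr2+/- livers. The mean of 6 mesothelial markers was 0.56 in wild-type replicate 1, against -0.37 to -0.24 in the other 3 wild-type livers. In Tgfbr2+/- livers it lay between -0.38 and -0.03. Wt1 and Msln, which mark the cells that cover the liver, were at 0.99 and 1.08 in wild-type replicate 1. The sign of that column is open, as stated above. None of the 6 genes alone had an outlying liver by this measure.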

How the results depend on the processing

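The direction of all 6 differences stayed as given under every setting tried: leaving out each library, turning wild-type replicate 1 or Tgfbr2+/- replicate 5, quantile normalization, array weights and the replicate block. Reading the deposited values as log2 scales every difference by 1 factor, so it cannot change a direction; Klf10 then differed by -0.19. With the replicate number as a block the differences were -0.51 for Klf10, -0.31 for Cdkn1a, -0.56 for Ctgf, -0.36 for Postn, 0.13 for Tgfbi and 0.15 for Tgif1. Probes past the adjusted p numbered 0, and 0 to 15 when 1 library was left out, 15 without Tgfbr2+/- replicate 3; 1151 (4.91%) had an unadjusted p under 0.05. Of the other response genes 2 had an unadjusted p under 0.05. That number was 0 to 8 without 1 library, 0 with wild-type replicate 1 turned, 8 with the replicate block, 5 with array weights, 1 with the most variable probe per gene, and 0 by adjusted p. The 1 pair past the adjusted p became 0 to 1 without 1 library, 2 with Tgfbr2+/- replicate 5 turned, and 0 with quantile normalization, in the Tgfbr2+/- livers alone and without the 2 farthest libraries. With Tgfbr2+/- replicate 5 turned, correlations with Tgfbr2 were 0.60 for Klf10, 0.68 for Cdkn1a, 0.76 for Postn and -0.64 for Tgif1. Others changed sign as follows. Ctgf ranged from -0.25 to 0.24 without 1 library, and was 0.49 with Tgfbr2+/- replicate 5 turned and 0.0047 with the second Tgfbr2 probe. Klf10 ranged from -0.14 to 0.23, and was -0.068 with quantile normalization and -0.061 with the most variable probe or the first Tgfbr2 probe alone. Tgfbi was -0.22 with Tgfbr2+/- replicate 5 turned and -0.28 with the second probe. Cdkn1a was -0.18 without the 2 farthest libraries. Tgif1 was 0.0092 without them and 0.013 with the second probe. The cause was not tested. No intensities were used, so signal over background and its limit on low genes are unknown, and 10 arrays limit the precision.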

Other observations

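Stress and growth genes that share inputs with the 6 genes had mixed differences. Of 21 immediate-early genes 14 had positive and 7 negative differences, with a median of 0.05, and 3 had an unadjusted limma p under 0.05, 2 of them higher and 1 lower, where 5.54% of all genes had such a p, 2.97% higher and 2.57% lower. Egr1, a zinc finger factor induced by serum and stress, had a lowest value of -0.32 and a highest of 1.17 in Tgfbr2+/- livers, against -1.14, -0.48, -0.95 and -0.47 in wild-type livers, a difference of 1.04 (SE 0.31, limma adjusted p 0.65). All 6 Tgfbr2+/- livers were above the 4 wild-type livers, where groups did not overlap for 1.08% of all genes. Turning wild-type replicate 1 made the groups overlap, and the difference was then 0.47; turning Tgfbr2+/- replicate 5 did so too, with a difference of 0.65. Of 20 other p53 targets 13 had positive differences, with a median of 0.04, including Btg2 (0.30, SE 0.12, or 0.07 with wild-type replicate 1 turned) and Gadd45a (0.26, SE 0.20), while that of Cdkn1a was negative. Among 17 circadian clock genes the median was -0.01 and 0 had an unadjusted limma p under 0.05 or an adjusted one; Arntl, the clock activator, differed by -0.20 (SE 0.10) and Nfil3 by 0.21 (SE 0.14).

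Cidec, a lipid droplet protein, varied widely, from -2.51 to 0.82 in Tgfbr2+/- livers, against 0.21, 0.49, -0.24 and 0.25 in wild-type livers (difference -1.12, SE 0.61, or -0.43 with Tgfbr2+/- replicate 5 turned). The neutrophil granule gene S100a9 averaged 0.45 ± 0.33 (SD, n = 6) in Tgfbr2+/- livers and -0.34 ± 0.31 (SD, n = 4) in wild-type livers. The groups overlapped, and the difference was 0.79 (SE 0.18), or 0.53 with wild-type replicate 1 turned and 0.54 with Tgfbr2+/- replicate 5 turned. Of 8 measured neutrophil markers 7 had positive differences, with a median of 0.10, or 0.05 and 0.04 with these columns turned. At an unadjusted limma p under 0.05 were 3, all higher, where 2.97% of all genes were, and 0 passed the adjusted one.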
